A study of Mus musculus with 4 samples.

Results

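The secreted Wnt antagonists are proteins outside the cell that hold back Wnt signaling, and 9 of their genes were followed here, namely Sfrp1, Sfrp2, Sfrp4, Sfrp5, Frzb, Dkk1, Dkk2, Dkk3 and Wif1. The genes were chosen by family name, with earlier results of these data known. All 17 probe sets (groups of short probes that together read a transcript) annotated to them on the Affymetrix mouse genome array were taken, of 45037 probe sets in all, and the 9 genes are among 18193 with a probe set of their own. RNA came from Sca-1 cells that were sorted magnetically from mouse hearts and not cultured. Cyc cells were from FVB mice aged 6 weeks with heart failure, which overexpress CyclinT1 and Gαq from 2 transgenes under the αMHC promoter, a promoter of cardiomyocytes. Wt cells were from healthy wildtype FVB littermates of the same age. There were 2 Cyc and 2 Wt pools, each made from the hearts of several mice of either sex, so no value belongs to a single animal.

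Wnt proteins are secreted ligands that bind frizzled receptors together with the co-receptors Lrp5 and Lrp6, which stabilizes β-catenin and switches on target genes. The secreted frizzled-related proteins Sfrp1, Sfrp2, Sfrp4, Sfrp5 and Frzb (also called Sfrp3) carry a domain like that of the receptors and can bind Wnt proteins, as does Wif1 through a domain of its own. Dkk1 and Dkk2 act on the Lrp co-receptors instead, and Dkk3 is the divergent member of its family, whose part in Wnt signaling is less clear. In the heart such antagonists come largely from fibroblasts and other stromal cells, and several are known from scar formation after injury.

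The intensities analysed were normalized by the authors, are not on a log scale, and can be negative for dim probe sets. In Cyc cells 18460 and 21444 probe sets reached an intensity of 50, and in Wt cells 19442 and 20200 did. Values under 50 are called near background. With 4 arrays the precision of every value is limited. The poly-A controls, transcripts added before labelling, had a median intensity of 250.1 in the Cyc pool and 213.9 in the Wt pool numbered 1, but of -1.1 in the Cyc pool and 0.57 in the Wt pool numbered 2. Same-numbered pools are therefore described as experiment 1 and experiment 2, each with 1 Cyc and 1 Wt pool. The labels were checked with Gnaq, the gene of Gαq, at the probe set 1450115_at, which was at 723.6 and 492.3 in the Cyc pools, against 22.7 and 4.1 in the Wt pools. The other probe sets of Gnaq and both of Ccnt1, the gene of CyclinT1, did not pass the thresholds used below, and the gene of Sca-1 was not analysed here.

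Sfrp2, Frzb and Dkk3 were expressed at higher level in Cyc than in Wt cells, whereas Sfrp1 and Sfrp4 did not pass the thresholds and Sfrp5, Dkk1, Dkk2 and Wif1 were read near background. Fold changes were tested with limma on log2 values with 16 added, over the 20680 probe sets that reached 50 on 2 or more arrays, and the thresholds were those of the study, 2-fold and an unadjusted p under 0.05. Of the 17 probe sets 9 could be tested, which stand for 5 genes. Among these 9, 5 probe sets of 3 genes rose, none fell and 4 did not pass, against 0.735% of all tested probe sets that rose and 0.116% that fell. All 4 pools were at 50 or more for each of the 5 that rose, so none of them entered the test through the Cyc pools alone. No adjusted p (Benjamini-Hochberg, over all 20680) was under 0.05 for any probe set, and 412 (1.99%) had an unadjusted p under 0.05, 5 of them members. If no probe set differed, a larger share than this 1.99%, 0.05 on average, would have an unadjusted p under 0.05. In a limma fit that also held the replicate number as a term, 1443 of the 20680 had one, which is above that share.

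**Figure D1:**
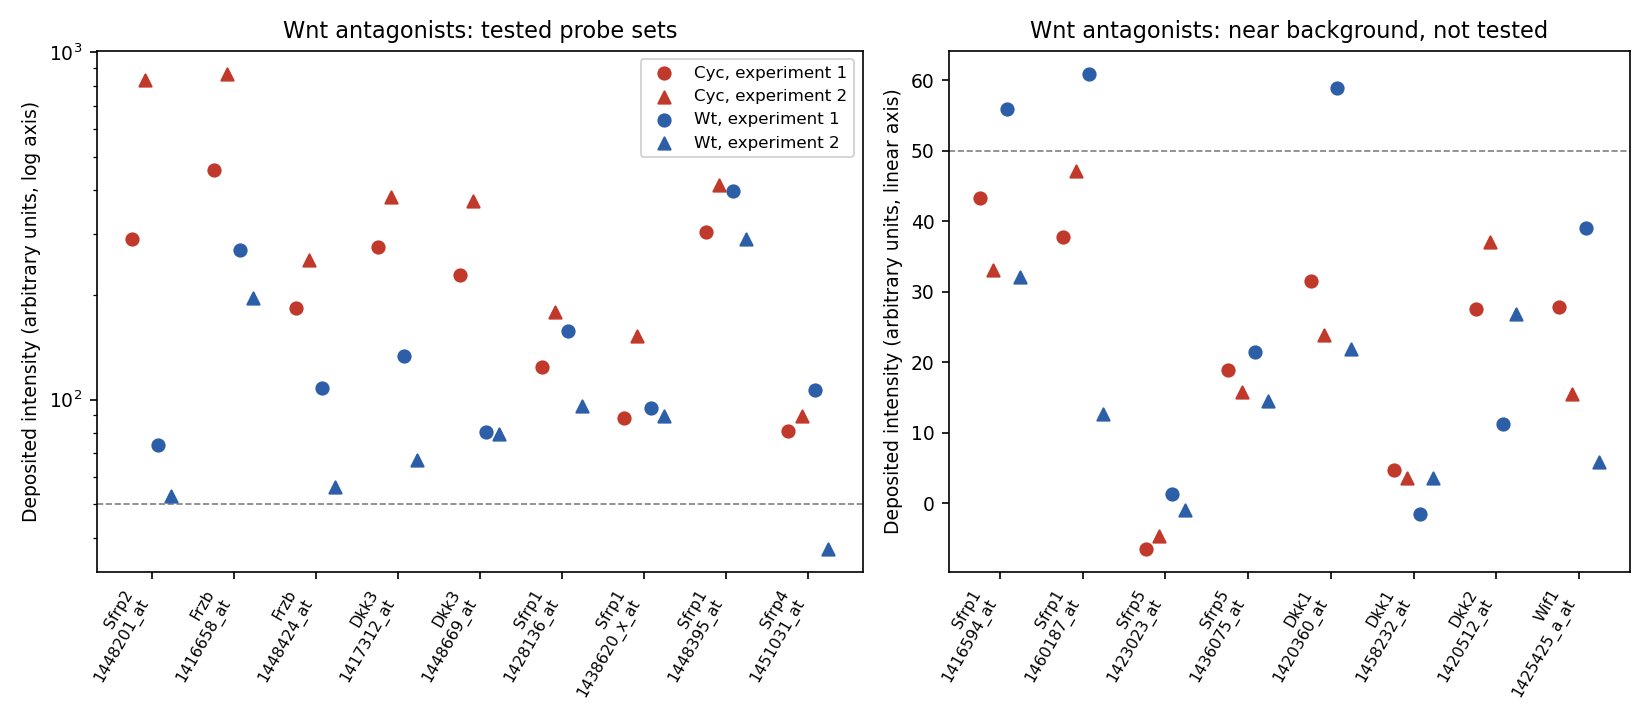
Deposited intensity of the 17 probe sets of secreted Wnt antagonists in each pool, with red for Cyc and blue for Wt pools, a circle for the first and a triangle for the second experiment, and a dashed line at 50 (left, tested probe sets on a log axis, right, the others on a linear axis). For Sfrp2, Frzb and Dkk3 the red points all stand above the blue ones, while the colors mix for Sfrp1 and Sfrp4.

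Sfrp2, which besides binding Wnt proteins can modulate the cleavage of procollagen, showed the greatest fold change of the 5 tested genes. Its single probe set, 1448201_at, was at 289.8 and 830.9 in the Cyc pools, against 73.9 and 52.7 in the Wt pools. Both Cyc pools lay well above both Wt pools, which were themselves only just above background. The ratio of Cyc to Wt was 3.92 in experiment 1 and 15.8 in experiment 2. In limma the log2 fold change was 2.70 (standard error, SE, 0.54), and its 95% confidence interval ran from 1.27 to 4.12 (unadjusted p = 0.00509, adjusted p = 1). Only 5 of the 20680 tested probe sets had a greater rise, as this one ranked number 6. The Cyc pools differed from each other more than the Wt pools did, with means of 560 ± 383 in Cyc and 63.3 ± 15.0 in Wt cells (SD, n = 2 pools each). Leaving out the Cyc pool of replicate 1 gave a log2 fold change of 3.43, and leaving out that of replicate 2 gave 1.96. The call was lost with the methods' t-test.

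Frzb, a decoy receptor first known from cartilage, rose at both of its probe sets. At 1416658_at the Cyc pools were at 459.0 and 863.1 and the Wt pools at 269.9 and 196.4. At 1448424_at the Cyc pools were at 183.5 and 252.8 and the Wt pools at 108.2 and 56.0. Neither probe set had a Wt pool as bright as a Cyc pool. The log2 fold changes were 1.39 (SE 0.39, unadjusted p = 0.0181) and 1.29 (SE 0.37, unadjusted p = 0.0188), with an adjusted p of 1 each in limma. Within the experiments the difference was 0.73 and 2.05 on the log2 scale at the first probe set and 0.68 and 1.90 at the second. The Cyc pool of experiment 1 was thus less than 2-fold brighter than its Wt pool at either probe set. Without the Wt pool of replicate 2 neither probe set of Frzb passed, at log2 fold changes of 1.18 and 0.90.

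Dkk3 also rose at both of its probe sets. At 1448669_at the intensities were 228.5 and 372.1 in the Cyc pools, against 80.4 and 79.6 in the Wt pools, and at 1417312_at they were 275.4 and 383.9 in the Cyc pools, against 133.6 and 67.1 in the Wt pools. The groups did not overlap at either, and the Wt pools were almost equal at the first. The log2 fold change was 1.68 (SE 0.31, unadjusted p = 0.00351, adjusted p = 1) at the first and 1.61 (SE 0.38, unadjusted p = 0.00979, adjusted p = 1) at the second. In the single experiments it was 1.34 and 2.02 at the first and 0.96 and 2.27 at the second. The first probe set passed the thresholds without any one of the pools, while the second had a p of 0.0528 without the Wt pool of replicate 2.

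The promoters of Sfrp2 and Frzb are printed because both genes passed the thresholds and are in the RefSeq promoter table, which holds 6 of the 9 genes. Dkk3, Sfrp1 and Sfrp4 are not among them. Each sequence runs 5′ to 3′ from 250 bases before to 50 after the gene's start in build GRCm38.p6, with every CG in capitals. Sfrp2 is from chr3:83766071-83766370 on the + strand and Frzb from chr2:80447347-80447646 on the - strand.
Sfrp2: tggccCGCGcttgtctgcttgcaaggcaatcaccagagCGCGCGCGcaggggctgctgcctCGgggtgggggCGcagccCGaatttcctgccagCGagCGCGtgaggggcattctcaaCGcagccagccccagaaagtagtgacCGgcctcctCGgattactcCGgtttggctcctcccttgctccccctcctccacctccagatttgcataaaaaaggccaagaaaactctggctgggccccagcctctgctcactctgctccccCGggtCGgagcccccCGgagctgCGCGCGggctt
Frzb: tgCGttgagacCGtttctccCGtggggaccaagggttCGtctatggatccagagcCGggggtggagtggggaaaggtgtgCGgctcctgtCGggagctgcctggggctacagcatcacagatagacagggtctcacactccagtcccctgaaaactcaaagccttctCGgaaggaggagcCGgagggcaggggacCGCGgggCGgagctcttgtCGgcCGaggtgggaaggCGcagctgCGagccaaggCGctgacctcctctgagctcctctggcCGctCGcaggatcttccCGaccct
Both are rich in CG, with 22 in Sfrp2 and 20 in Frzb. As many are held by 23.1% and 26.5% of the 32851 promoters of the same length, whose median is 7. The TCF/LEF motif, through which β-catenin acts, was searched as CTTTGAT and CTTTGAA on both strands and is in neither promoter, as against 8.65% of all. Among the 6 genes it is in that of Dkk1 alone, once. The TATA box, searched as TATAAA on both strands, is in neither (13.6% of all), and the GC box GGGCGG, on both strands, is in Frzb once but not in Sfrp2 (35.7% of all). These matches describe the letters and no binding.

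Sfrp1 was read above background at 3 of its 5 probe sets, and Sfrp4 in every pool but the Wt pool of experiment 2. Both genes differed in direction between the experiments. Sfrp1, a Wnt-binding antagonist that limits inflammation and fibrosis in the mouse heart, had 3 tested probe sets. At its brightest, 1448395_at, the Cyc pools were at 304.7 and 415.7 and the Wt pools at 399.2 and 290.4. The highest and the third highest pool were Cyc, so the groups overlapped. The log2 difference was -0.37 in experiment 1 and 0.49 in experiment 2, and the fitted value of 0.06 had a 95% confidence interval from -0.72 to 0.84. The other tested probe sets gave -0.31 and 0.80 (1428136_at, fitted 0.24, interval from -0.65 to 1.14) and -0.08 and 0.68 (1438620_x_at, fitted 0.30, interval from -0.53 to 1.13). The name of the last of these marks probes that may also bind other transcripts. The intervals are wide enough to hold a 2-fold rise at 2 of the 3.

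Sfrp4, which is also a marker of stromal cells in the heart, was at 81.4 and 89.7 in the Cyc pools, against 106.7 and 37.2 in the Wt pools. The Cyc pools lay between the Wt pools, and the Wt pool of experiment 2 was near background. The log2 difference of Sfrp4 was -0.33 in experiment 1 and 0.99 in experiment 2. Its fitted value was 0.33, with an interval from -0.86 to 1.52 (limma). That interval is wide enough to hold a 2-fold rise.

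The other 8 probe sets were read near background, with intensities from -6.44 to 60.8. Only 3 of these readings reached 50, all in the Wt pool of experiment 1. Dkk1, the prototype inhibitor of Lrp co-receptors, was at 31.5 and 23.8 in the Cyc pools, against 58.9 and 21.9 in the Wt pools at 1420360_at, and at 4.8 or less at its other probe set. Dkk2 was at 27.6 and 37.1 in the Cyc pools, against 11.3 and 26.8 in the Wt pools. Wif1 was at 27.8 and 15.6 in the Cyc pools, against 39.0 and 5.9 in the Wt pools. No fold change is given for these genes, as both groups were near background in most pools. Sfrp5, a family member known from fat tissue, did not exceed 21.5 at either probe set in any pool, and 2 of the 5 Sfrp1 probe sets were at 60.8 or less. Of all 17 probe sets, 7 had both Cyc pools above both Wt pools, 1 had them below and 9 overlapped, but 3 of these 8 ordered probe sets are near background. Among the 9 tested ones, 5 lay above and none below, against 15.1% and 8.23% of all tested probe sets.

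The rises of Sfrp2, Frzb and Dkk3 were seen in both experiments and were greater in experiment 2. In experiment 1, 5 of the 9 tested probe sets were higher in Cyc cells (38.2% of all tested probe sets), and these were the 5 of Sfrp2, Frzb and Dkk3. In experiment 2 all 9 were higher (58.8% of all). On the log2 scale with 16 added, a rise of at least 2-fold in both experiments was seen at 2 of the 9, those of Sfrp2 and of Dkk3 at 1448669_at, against 0.295% of all. Dkk3 at 1417312_at was just short of this on that scale, while its plain ratios of Cyc to Wt were 2.06 in experiment 1 and 5.72 in experiment 2. Over all tested probe sets the median difference was -0.10 in experiment 1 and 0.06 in experiment 2. With 1 pool of each genotype per experiment, whether the experiments differ could not be tested for a single probe set.

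**Figure D2:**
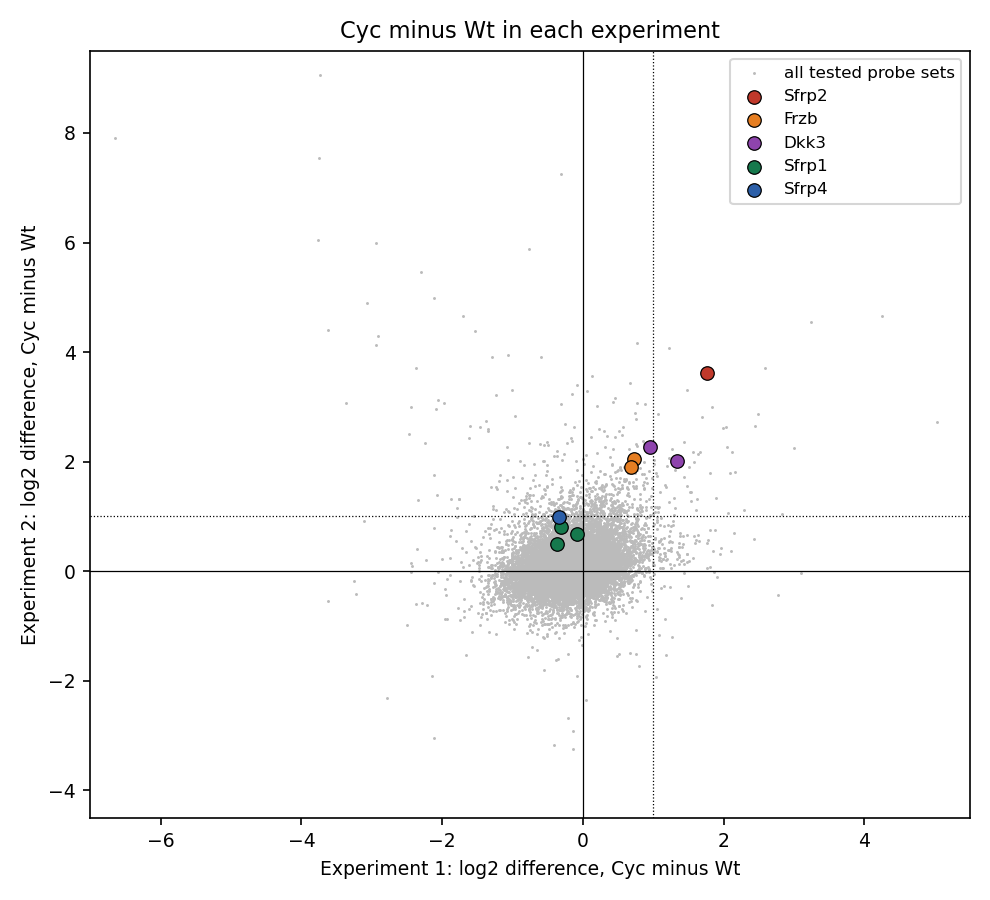
Log2 difference of Cyc minus Wt in experiment 1 (horizontal) and in experiment 2 (vertical) for all 20680 tested probe sets in grey and the 9 of secreted Wnt antagonists in color, with dotted lines at a 2-fold rise. Sfrp2, Frzb and Dkk3 lie to the right of 0 and above 1, and Sfrp1 and Sfrp4 lie to the left of 0 and above it.

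The sums of cell type markers differed between the pools. In RNA of mixed cells, more cells of a type and more RNA per cell cannot be told apart. The fibroblast markers were all at 50 or more in every pool, and the 10 genes summed to intensities of 59247 and 57340 in the Cyc pools, against 61304 and 40140 in the Wt pools. In experiment 1 this sum, in which the brightest genes weigh most, was no higher in the Cyc than in the Wt pool. In experiment 2 it was lower in the Wt pool. The median log2 fold change of the 10 genes was 0.39 (-0.02 over all tested probe sets), with 0.03 in experiment 1 and 0.75 in experiment 2. The collagen gene Col1a1, 1 of the 10, rose at its brightest probe set. It was at 456.1 and 905.5 in the Cyc pools, against 321.3 and 242.5 in the Wt pools. Counting any probe set, 3 of the 10 rose and none fell. Besides Col1a1 these were Col1a2, another type I collagen chain, and the microfibril gene Mfap5, each at a less bright probe set. The share of all genes that rose at any probe set was not counted. The 8 endothelial markers summed to 36843 and 40109 in the Cyc pools, against 39631 and 43584 in the Wt pools, and all 8 were at 50 or more in every pool. The 7 markers of smooth muscle and pericytes summed to 12327 and 23778 in the Cyc pools, against 10561 and 15031 in the Wt pools, with none past the thresholds. The part of these cell types in the results was not tested.

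The sums of markers of mesothelium, the lining of the heart's outer surface, and of airway epithelium were highest in the Cyc pool of experiment 2 and next in the Wt pool of experiment 1. The 7 mesothelial genes summed to 618 and 2534 in the Cyc pools, against 1317 and 700 in the Wt pools, and 2 and 7 of them reached 50 in Cyc and 7 and 1 in Wt cells. The 8 airway genes summed to 369 and 18102 in the Cyc pools, against 3165 and 133 in the Wt pools. This order held for 6 of the 7 mesothelial genes, the exception being the transcription factor gene Wt1, which made up much of the lower sums, and for 3 of the 8 airway genes, Scgb1a1, Scgb3a2 and Cyp2f2, which carried the high sums. The pools of Sfrp1 stood in the order of the airway sums at 1448395_at and 1428136_at, highest in the Cyc pool of experiment 2 and next in the Wt pool of experiment 1. At 1438620_x_at Sfrp1 had the same top pools but its lowest value in the Cyc pool of experiment 1. Sfrp2, Frzb at 1416658_at and 1448424_at and Dkk3 were also highest in the Cyc pool of experiment 2. Like the airway sums, they were lowest in the Wt pool of experiment 2. They left the airway order in between, as their Cyc pool of experiment 1 was brighter than the Wt pool of experiment 1. Markers of macrophages summed to 361 and 1060 in the Cyc pools, against 381 and 184 in the Wt pools, over 7 genes. Of these genes 2 and 6 reached 50 in the Cyc pools and 3 and 1 in the Wt pools. Those of B cells summed to 83.0 and 271 in the Cyc pools, against 77.6 and 53.3 in the Wt pools, over 4 genes. Of these 0 and 2 reached 50 in the Cyc pools and 0 and 0 in the Wt pools, so most B cell readings were near background. The B cell sums stood in the same order of pools as Sfrp2, Frzb and Dkk3. Markers of cardiomyocytes, in which the transgenes are active, summed to 2245 and 1456 in the Cyc pools, against 3498 and 2039 in the Wt pools over 9 genes, of which 2, the myosin light chain gene Myl2 and the myoglobin gene Mb, fell at their brightest probe set and none rose. Counting any probe set, 3 fell, with Myl3 as the other, and here too no share over all genes was counted. The part of these cells in the values of the antagonists was not tested.

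**Figure D3:**
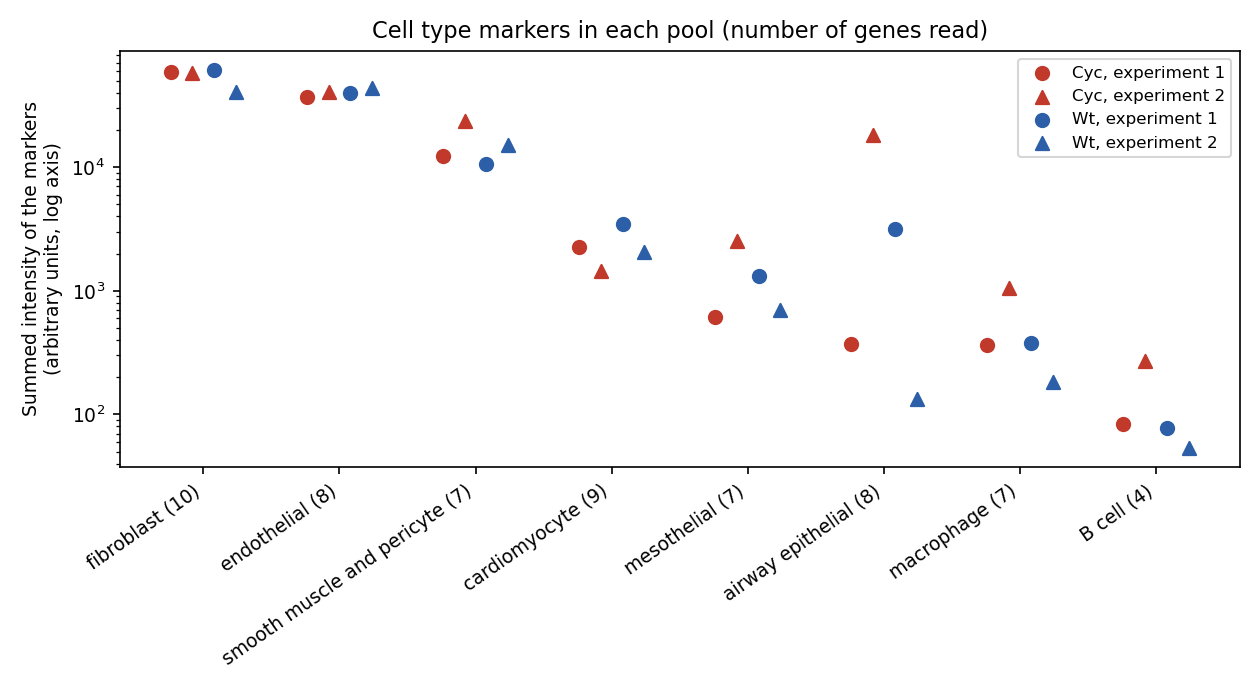
Summed intensity (log axis) of the markers of 8 cell types in each pool, in red for Cyc and blue for Wt pools, as a circle for the first and a triangle for the second experiment, with the number of genes in brackets. Fibroblast sums run from 40140 to 61304, and airway sums run from 133 to 18102.

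In the rest of the Wnt pathway no gene but the dim Wnt2 passed when read at its brightest probe set, and Fzd2 passed at another. Each gene was taken at its brightest probe set, and all fold changes are from limma with an adjusted p of 1. Of 21 genes of Wnt ligands and their secretion 8 entered the test. None fell, and 7 did not pass. Wnt2, a ligand of the canonical pathway, was at 62.0 and 55.1 in the Cyc pools, against 32.1 and 4.4 in the Wt pools. With both Wt pools near background only a bound can be given, at least 1.17-fold higher, which is the geometric mean of the Cyc pools over 50. It entered the test through its Cyc pools alone and so had to differ, and its passing is not read as a rise. Its unadjusted p of 0.0459 exceeded 0.05 without the Wt pool of replicate 2 (0.214) or the Cyc pool of replicate 1 (0.0619). Wls, the carrier of Wnt proteins to the surface, was at 355.8 and 577.8 in the Cyc pools, against 260.6 and 455.9 in the Wt pools, and Porcn, which attaches their lipid, had a log2 fold change of -0.48 (SE 0.40). The median of the tested genes of this list was 0.14, with Wnt2 at its fitted value or at its bound.

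**Figure D4:**
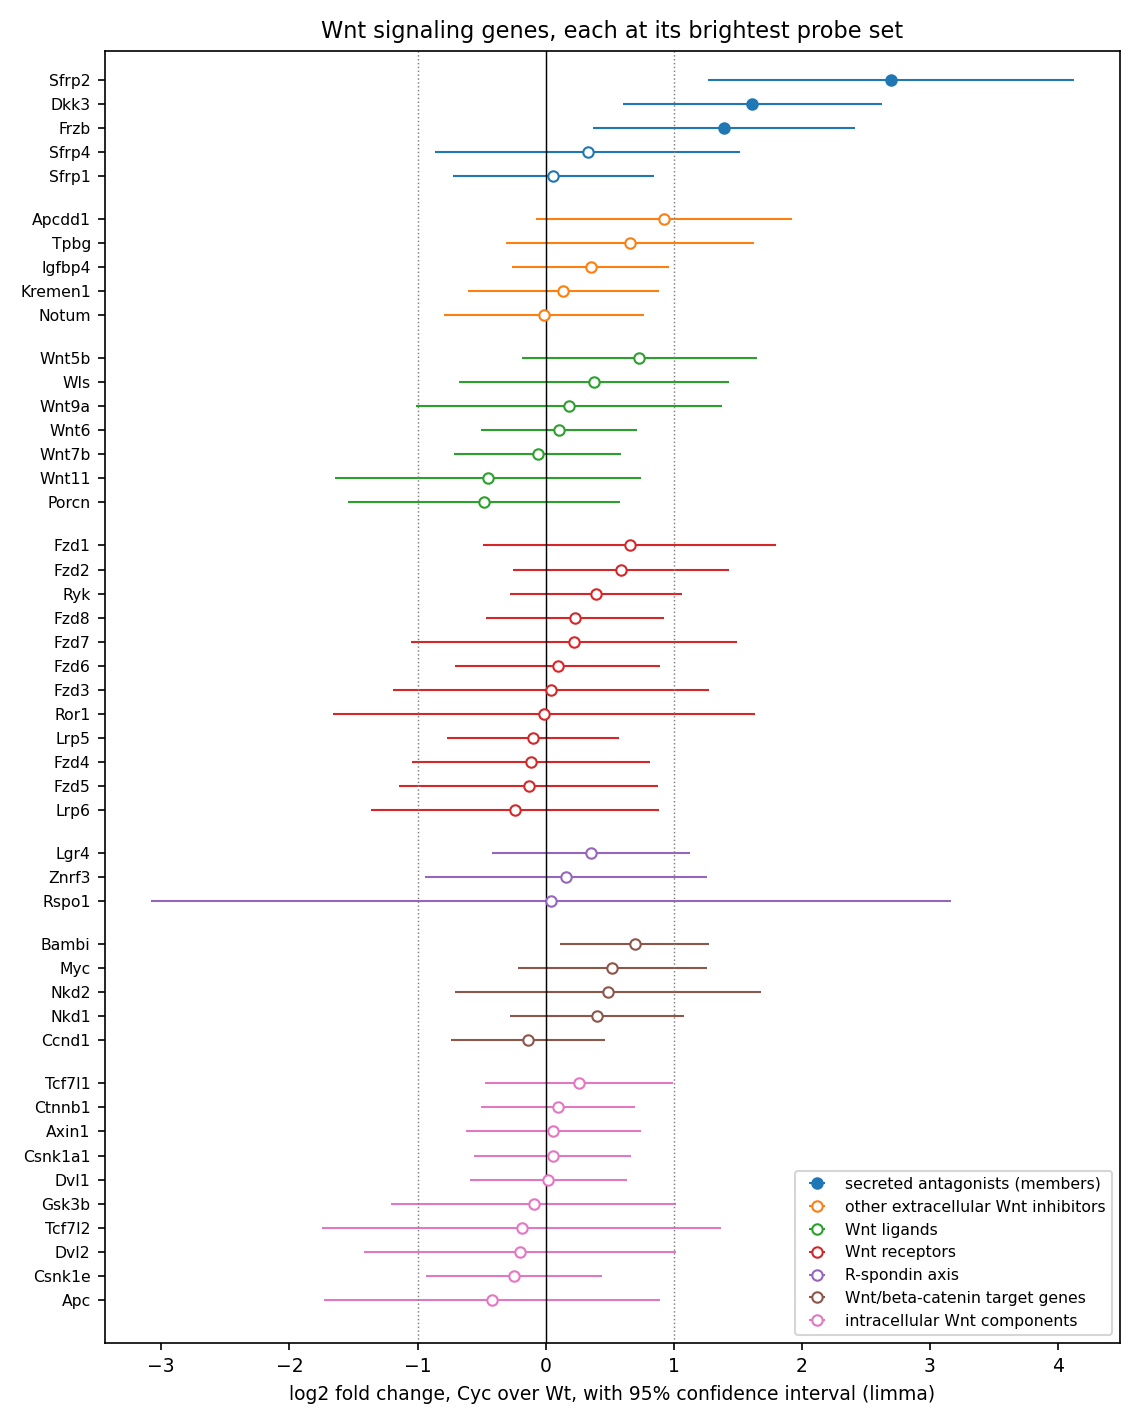
Log2 fold change of Cyc over Wt with its 95% confidence interval (limma, 2 pools per group) for the tested genes of 7 groups of Wnt genes, each at its brightest probe set, with filled points for those past 2-fold and an unadjusted p under 0.05. The filled points are Sfrp2, Dkk3 and Frzb at the top, and Wnt2, which has only a bound, is not drawn.

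Of the 15 receptor genes 12 could be tested and none passed at its brightest probe set, with a median of 0.07. The frizzled receptor genes Fzd4 and Fzd6 had log2 fold changes of -0.11 (SE 0.35) and 0.09 (0.30). Fzd2 passed at another probe set, 1418534_at, at 79.9 and 156.3 in the Cyc pools, against 56.2 and 28.2 in the Wt pools, with a log2 fold change of 1.19 (SE 0.42, unadjusted p = 0.0406). At its brightest probe set Fzd2 had 0.59 (SE 0.32). The co-receptors Lrp5 and Lrp6, on which Dkk1 and Dkk2 act, had -0.10 (0.26) and -0.24 (0.43), and were chosen for mention after their values were seen, as were Dkk4, Dkkl1, Axin2 and Bmp1 below. Of the 9 genes of R-spondins, which strengthen Wnt signals, and their receptors and ligases 3 could be tested and none passed. Lgr4, a receptor of R-spondins, had 0.35 (0.29) and Znrf3, a ligase that removes frizzled receptors, 0.16 (0.42).

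Of the 11 other genes that hold back Wnt signaling outside the cell, 10 are on the array with a symbol of their own, 5 could be tested and none passed. Their median was 0.35. Igfbp4, an IGF-binding protein that also inhibits Wnt signaling, was at 4018 and 4763 in the Cyc pools, against 3458 and 3395 in the Wt pools, with a log2 fold change of 0.35 (SE 0.23). Apcdd1, a membrane-bound inhibitor, was at 222.3 and 401.3 in the Cyc pools, against 182.3 and 123.3 in the Wt pools. Its log2 fold change of 0.92 (SE 0.38) missed both thresholds, though its Cyc pools were the brighter ones. Dkk4 and Dkkl1, relatives of the Dickkopf genes, were near background at 8.1 or less in every pool.

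Target genes of Wnt/β-catenin signaling did not pass the thresholds either. Of 9 genes 8 are on the array with a symbol of their own and 5 could be tested, with a median of 0.49. Bambi, a pseudoreceptor of the TGF-β family, was at 648.5 and 680.6 in the Cyc pools, against 407.9 and 400.8 in the Wt pools. Its groups lay far apart for their spread, but the log2 fold change of 0.69 (SE 0.22) is under 2-fold. Ccnd1, the gene of cyclin D1, had -0.14 (0.23). Axin2, the usual readout of the pathway, was near background, at 31.5 and 12.3 in the Cyc pools, against 32.1 and 42.5 in the Wt pools, so its response could not be read at this signal. Among 11 intracellular components 10 could be tested and none passed, with a median of -0.04. Ctnnb1, the gene of β-catenin, was at 11521 and 11091 in the Cyc pools, against 11251 and 9946 in the Wt pools, and Csnk1a1, a kinase that marks β-catenin for decay, had a log2 fold change of 0.05 (0.23).

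Sfrp2 is also known to act with procollagen C-proteinases. Of the 5 genes of these enzymes and their enhancers 3 could be tested, none passed and the median was 0.55. Bmp1, the main enzyme, was at 458.9 and 490.7 in the Cyc pools, against 422.5 and 498.6 in the Wt pools, and its groups overlapped. Pcolce, which enhances it, was at 3492 and 3795 in the Cyc pools, against 2668 and 1746 in the Wt pools, a log2 fold change of 0.75 (SE 0.30), and Pcolce2, another enhancer, had 0.55 (0.41).

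The genes most like each risen probe set were sought by the root mean square distance between log2 values over the 4 pools, each centred on its own mean. This describes 4 arrays and says nothing of shared control. The pattern of Sfrp2 was nearest to those of Col8a2, a network collagen (distance 0.24), Ecrg4, a gene of secreted peptides (0.35), and Fmod, a collagen-binding proteoglycan (0.36). Col8a2 was at 154.2 and 305.8 in the Cyc pools, against 31.6 and 24.2 in the Wt pools. Frzb at 1448424_at was nearest to the type I collagen chain Col1a2 (0.07), Nupr1 and the matrix protein Cilp, and at 1416658_at to Cd52, a leukocyte surface protein (0.08), Usp18, an interferon-stimulated protease, and Enpp6. Dkk3 at 1417312_at was nearest to Irf7 (0.05) and Ifi27l2a, which are both interferon-stimulated genes, and to the complement protease Cfi. At 1448669_at it was nearest to Stc2 (0.12), the matricellular protein gene Postn and the granzyme gene Gzma. The probe sets of 1 gene thus had different neighbors. Frzb at 1448424_at and Dkk3 at 1417312_at were 0.16 apart, closer than both Frzb probe sets (0.21) or both Dkk3 probe sets (0.31) were to each other, whereas Sfrp2 was 0.60 or more from each of the other 8.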

How the data were processed

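Total RNA of Sca-1 cells was amplified linearly and hybridized to Affymetrix mouse genome arrays, 1 pool per array. The authors deposited normalized probe set intensities on a linear scale, made in Resolver. The background correction and summary method are not given in the sources used here. The Resolver error model was not run. The deposited intensities were not normalized again. The 64 control probe sets were left out, values below 0 were set to 0, 16 was added and log2 taken, so fold changes of dim genes are understated. Probe sets with 50 or more on at least 2 arrays, 20680 of 45037, were fitted together with limma 3.58.1 in R 4.3.3 (genotype as the only term, moderated variances, two-sided, Benjamini-Hochberg). Since nothing else is replicated, p-values reflect only how these pools scatter.

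Same-numbered pools are called an experiment because the added poly-A controls split by replicate number. Probe sets were named from the platform annotation, which gives 1 gene symbol to 34945, more than 1 to 932 and none to 9160. The symbols of all 9 genes match RefSeq by gene number. Named were the 9 genes with all their probe sets, for other Wnt lists the 2 brightest genes and those past the thresholds (a few more were chosen after their values were seen, as stated there), and for each risen probe set the 3 genes with the nearest pattern. Members, lists and markers were chosen with earlier results of these data known. The procedure was run on simulated data whose noise was independent between arrays. Same-numbered pools here scatter together, so that run does not show how reliable the calls in these pools are. Alternatives were pseudocounts of 1 and 50, no filter or one at 100, quantile normalization, median scaling and the replicate number as a block. Others were an intensity trend, Student's t-test (without moderated variances) and leaving out each pool. Promoters are from RefSeq (GRCm38.p6).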

Additional observations from a re-analysis of the deposited data

How the results depend on the processing

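The 5 probe sets that rose remained called under pseudocounts of 1 and 50, a filter at 100, quantile normalization, median scaling, an intensity trend and the replicate block. Without a filter 3 remained, those of Sfrp2 and Dkk3, and with Student's t-test 1, Dkk3 at 1448669_at. Leaving out each pool gave 2 to 5, with 2, Sfrp2 and Dkk3 at 1448669_at, without the Wt pool of replicate 2. Frzb at 1416658_at also missed 2-fold without the Cyc pool of replicate 2, at 0.95. No probe set of these genes fell in any setting (0 throughout). The log2 fold changes without each pool ran from 1.96 to 3.43 for Sfrp2, from -0.076 to 0.56, from -0.046 to 0.64 and from -0.16 to 0.28 for Sfrp1 at 1428136_at, 1438620_x_at and 1448395_at, and from -0.27 to 0.93 for Sfrp4, so those of Sfrp1 and Sfrp4 changed sign with single pools (1448395_at at -0.15 without the Cyc and -0.16 without the Wt pool of replicate 2). The cause was not tested. With a filter at 100, Sfrp4 and Sfrp1 at 1438620_x_at were not tested. The call of Wnt2 was lost under 8 alternatives, among them no filter and both pseudocounts.

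Over all probe sets 152 rose and 24 fell. With a pseudocount of 50, 93 rose, and with one of 1, 46 fell. Without a filter 37 fell, and Student's t-test gave 47 and 7, of 644 with an unadjusted p under 0.05 and none after correction. Leaving out each pool gave 117 to 581 rises and 29 to 1050 falls. Without the Cyc pool of replicate 1, 581 rose and 60 fell, and without that of replicate 2, 117 rose and 1050 fell, where the median of all fold changes moved by 0.19 and -0.17. With the replicate number as a block 191 rose and 47 fell, and 1 had an adjusted p under 0.05. Deviations of same-numbered pools from their group means correlated at 0.447, and the block changed no call of the 9 genes (smallest adjusted p 0.376, Dkk3). With 2 pools per group and several genes near 50, changes of the dim antagonists could not be measured.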
